A study of Mus musculus with 8 samples.

Results

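Ms4a2, which encodes the β chain of the high-affinity IgE receptor, was among the more abundant mRNAs of untreated SV-LECs and was 12.7-fold lower after TGFβ1. Its neighbours on either side on the chromosome, Ms4a6d and Ms4a3, were lower as well. Ms4a4d and Ms4a10, members of the same gene cluster, were higher. The IgE-binding α chain gene Fcer1a had no read in any library, and the γ chain gene Fcer1g had 2 to 8 reads per library.

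The genes described here are 6 genes of the membrane-spanning 4-domain family A, Ms4a2, Ms4a3, Ms4a4b, Ms4a4d, Ms4a6d and Ms4a10, and the 2 further chain genes of the IgE receptor, Fcer1a and Fcer1g, 8 of the 55471 genes in the count table. They were selected on family membership with their difference between TGFβ1-treated and untreated libraries already known, and their values in that contrast are therefore a description without a test. Each symbol matched 1 row. At least 1 read was counted for 7 of the 8 genes, and 5 passed the filter on low counts that left 13818 genes for testing.

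SV-LECs are lymphatic endothelial cells from mouse mesenteric adventitia, kept as a line by SV40 immortalization, which both groups share. They were left untreated or were given 10 ng/ml TGFβ1 for 72 h, with 4 libraries per group. The study's Methods call the 4 samples of a group technical replicates of a single line, so SDs and p-values cover that spread and not the spread between independent experiments. Poly(A) RNA was read as single ends of 75 bases, and the libraries held 18952504 to 26386941 counted reads. Levels are given as counts or as CPM, with library sizes normalized by TMM, a scaling that allows for differences in RNA composition. A floor of 3 reads in a library corresponded to 0.113 to 0.162 CPM and covers counting error only.

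Most genes of the MS4A family encode small proteins that cross the membrane several times and lie side by side in a single cluster, and many are known from leukocytes. The high-affinity IgE receptor is assembled from an α chain that binds IgE, a β chain that amplifies the signal, and a pair of γ chains that carry activation motifs read by SRC-family kinases and SYK. The complete receptor is a hallmark of mast cells and basophils. The γ chain also serves other Fc receptors and several innate receptors of myeloid cells.

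Most, but not all, markers of leukocytes and mast cells had few reads. At most 3 reads in every library were counted for 14 of 22 leukocyte markers and 17 of 24 mast cell and basophil markers. Among the markers with more reads, Il1rl1 averaged 178 CPM untreated and 317 CPM after TGFβ1, and Gata2 53.7 and 42.5 CPM. Cd14 averaged 10.2 and 14.8 CPM, and Cd68 6.96 and 15.9 CPM. The genes with few reads named next were picked from these lists. Ptprc, the pan-leukocyte phosphatase CD45, had 1 read in 1 TGFβ1 library and none in the other 7. Among mast cell and basophil protease genes, Cpa3, Tpsab1 and Tpsb2 had no read, Cma1 had none in untreated libraries and 4, 6, 5 and 6 in TGFβ1 libraries, and Mcpt8 had none in untreated libraries and 1, 0, 3 and 3 in TGFβ1 libraries. Kit, the stem cell factor receptor of mast cells, had 0 to 2 reads per library. Several genes that define lymphatic endothelium were nearly absent as well. Prox1, its master transcription factor, had no read in untreated libraries and 0 to 2 in TGFβ1 libraries, Lyve1 had 0 to 3 reads in untreated libraries and none after TGFβ1, and Pecam1 had 1 to 5 throughout. Podoplanin (Pdpn, 342 ± 19.5 CPM untreated and 313 ± 5.25 CPM after TGFβ1, SD, n = 4) and the VEGF-C receptor gene Flt4 (21.6 ± 1.23 and 29.3 ± 0.407 CPM) were present.

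Ms4a2 (ENSMUSG00000024680, chromosome 19 of GRCm38, 11615523 to 11623719, minus strand) had 5710, 7154, 6093 and 5260 reads in untreated libraries 1 to 4 and 410, 350, 463 and 593 reads in TGFβ1 libraries 1 to 4. Every untreated library lay far above every TGFβ1 library. Its level fell from 269 ± 4.12 to 21.3 ± 2.83 CPM (SD, n = 4), a log2 fold change of -3.66 with a standard error of 0.0685. The lowest untreated library had 266 CPM and the highest TGFβ1 library 23.0 CPM. Among the 13818 genes tested, Ms4a2 had the 26th lowest log2 fold change. In bulk RNA, fewer cells that express a gene and less RNA per cell cannot be told apart.

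Fcer1a (ENSMUSG00000005339, chromosome 1, 173221284 to 173227214) was at 0 reads in all 8 libraries, which allows at most 0.162 CPM in the shallowest of them. Fcer1g (ENSMUSG00000058715, chromosome 1, 171229572 to 171234365) had 3, 4, 2 and 3 reads in untreated libraries and 4, 4, 2 and 8 reads in TGFβ1 libraries. The groups overlapped, and the reads of Fcer1g were too few for testing. Summed over libraries, 12 untreated and 18 TGFβ1 reads gave a ratio of 1.59 by normalized library size, with an exact 95% binomial interval for counting error of 0.723 to 3.61. A difference in Fcer1g was not detectable at this depth. Transcripts of the β chain were thus counted 5260 to 7154 times per untreated library while those of both partner chains were at or near the floor.

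**Figure D1:**
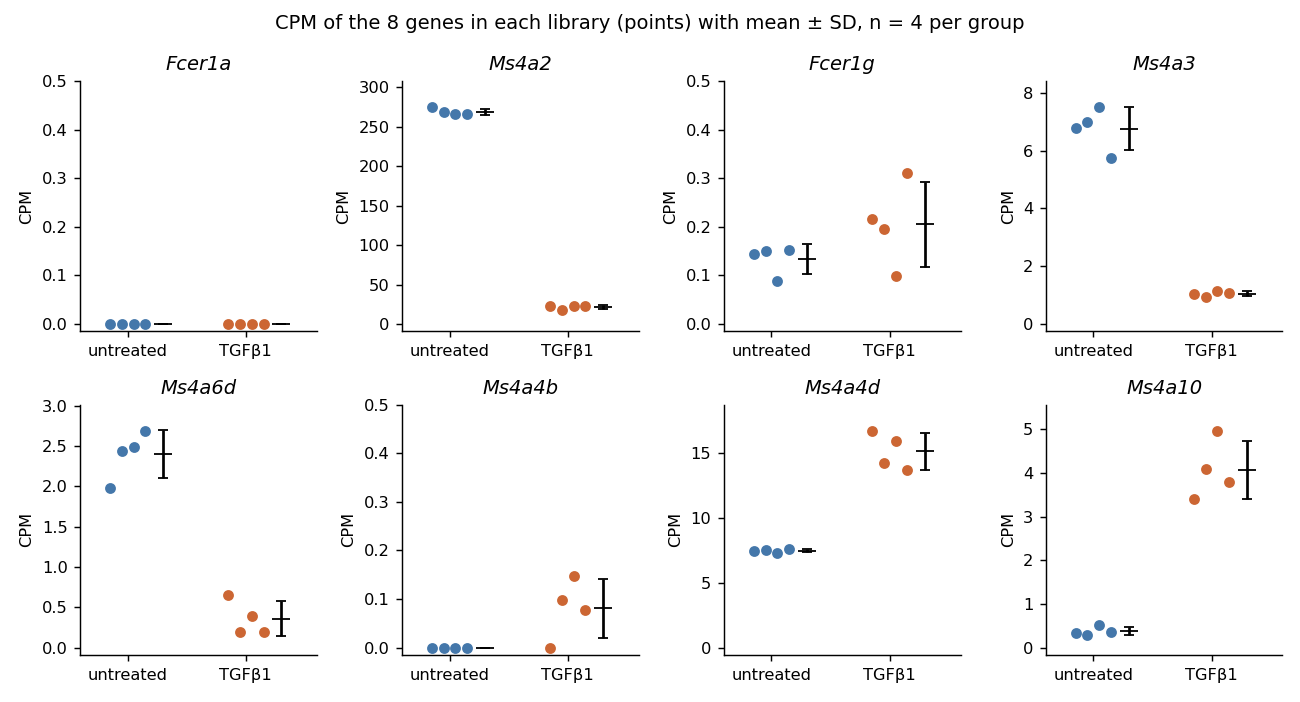
CPM of each gene (vertical axis, linear from 0, a separate scale per panel) in the 4 untreated (blue) and 4 TGFβ1 (red) libraries as points, with the mean and SD in black. Ms4a2, Ms4a3 and Ms4a6d were lower and Ms4a4d and Ms4a10 higher in every TGFβ1 library, while Fcer1a was at 0 and Fcer1g and Ms4a4b reached at most 0.311 CPM.

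Ms4a3, a gene known from basophils and from granulocyte and monocyte progenitors (ENSMUSG00000024681, 11629496 to 11640851), had 141, 186, 172 and 113 reads in untreated libraries and 19, 19, 23 and 28 reads in TGFβ1 libraries. The groups did not overlap. Its level fell from 6.76 ± 0.748 to 1.04 ± 0.0893 CPM (SD, n = 4), 6.48-fold lower, with a log2 fold change of -2.69 and a standard error of 0.161. Ms4a6d, a gene known from macrophages (ENSMUSG00000024679, 11586604 to 11604849), had 41, 65, 57 and 53 reads in untreated libraries and 12, 4, 8 and 5 reads in TGFβ1 libraries. Here too the groups did not overlap, but the TGFβ1 values lay near the floor and had a coefficient of variation of 60.3%. Its level fell from 2.40 ± 0.301 to 0.358 ± 0.216 CPM (SD, n = 4), 6.70-fold lower, with a log2 fold change of -2.79 and a standard error of 0.246.

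Ms4a10 (ENSMUSG00000024731, 10962293 to 10974670) had 7, 8, 12 and 7 reads in untreated libraries and 63, 84, 101 and 98 reads in TGFβ1 libraries. The lowest TGFβ1 library held several times the reads of the highest untreated library. Its level rose from 0.379 ± 0.0992 to 4.07 ± 0.663 CPM (SD, n = 4), 10.7-fold higher, with a log2 fold change of 3.41 and a standard error of 0.226. Ms4a4d (ENSMUSG00000024678, 11536801 to 11558467) had 155, 201, 167 and 150 reads in untreated libraries and 309, 293, 324 and 352 reads in TGFβ1 libraries. The groups were again apart, with untreated libraries between 7.29 and 7.61 CPM and TGFβ1 libraries between 13.7 and 16.7 CPM. The mean rose from 7.48 ± 0.137 to 15.1 ± 1.42 CPM (SD, n = 4), 2.03-fold higher, with a log2 fold change of 1.01 and a standard error of 0.0943. Ms4a4b, known from T cells (ENSMUSG00000056290, 11443553 to 11467055), had no read in untreated libraries and 0, 2, 3 and 2 reads in TGFβ1 libraries. Both groups were at or under the floor, and no fold is given.

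In the 5 genes tested, Ms4a2, Ms4a3, Ms4a6d, Ms4a4d and Ms4a10, the libraries of the groups did not overlap, which was also the case in 69.8% of all genes tested. At an FDR below 0.05 (edgeR likelihood ratio test, Benjamini-Hochberg), 2 were called higher, against 37.6% of all genes tested, and 3 were called lower, against 38.0%. Ms4a10 passed the filter on low counts only with its TGFβ1 libraries and Ms4a6d only with its untreated libraries, which favours the directions seen. With 75.6% of all genes called in one direction or the other, and the 8 genes selected with this contrast known, nothing is read from these counts.

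Levels of different genes were compared as CPM per kb of exon, with exons merged over the transcripts of a gene. In untreated SV-LECs Ms4a2 was at 95.7 CPM per kb on average (94.6 to 97.8, n = 4), and 390 of 13808 tested genes with a known length had a higher level. Ms4a4d followed at 4.94 (4.82 to 5.03), Ms4a3 at 3.59 (3.04 to 3.99), Ms4a6d at 1.38 (1.14 to 1.55), Ms4a10 at 0.375 (0.297 to 0.518) and Fcer1g at 0.153 (0.0999 to 0.174) CPM per kb. The ranges of neighbours in this order did not overlap. After TGFβ1, Ms4a4d stood first at 10.0 CPM per kb (9.03 to 11.0), followed by Ms4a2 at 7.56 (6.06 to 8.18) and Ms4a10 at 4.02 (3.37 to 4.92). Ms4a2 was then exceeded by 6239 of the 13808 genes. Ms4a3 came next at 0.554 (0.491 to 0.601), and Fcer1g at 0.235 (0.113 to 0.355) and Ms4a6d at 0.206 (0.112 to 0.374) CPM per kb overlapped in range. Scaled by length, the β chain thus passed from the highest of the 8 genes to below Ms4a4d. This order rests on the lengths used, 2813 bases merged over 5 transcripts for Ms4a2 and 1513 bases of 1 transcript for Ms4a4d. In CPM, Ms4a2 was still above Ms4a4d after TGFβ1, with means of 21.3 and 15.1 CPM.

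**Figure D2:**
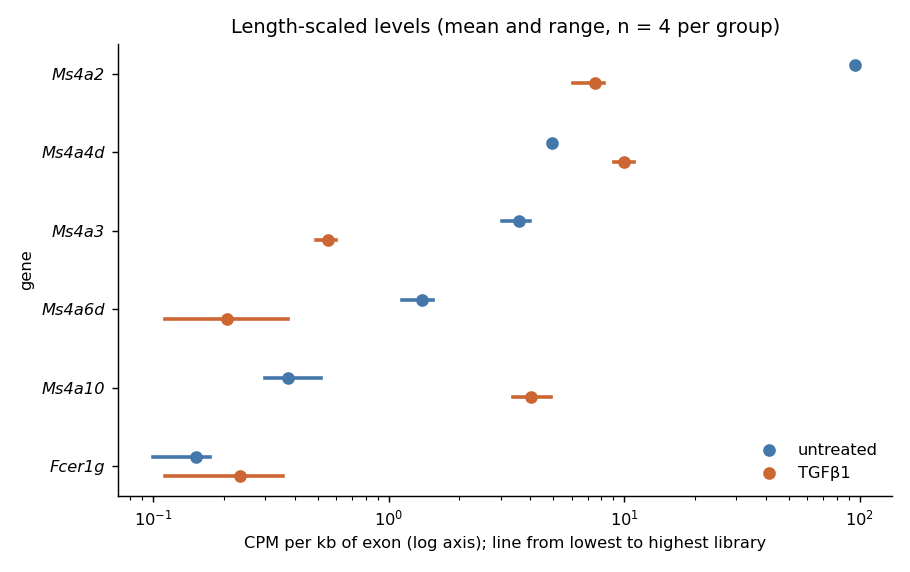
Length-scaled level in CPM per kb of exon (log axis) of the 6 genes with reads in every library, as the mean (point) and the range from the lowest to the highest of 4 libraries (line), untreated in blue and TGFβ1 in red. Ms4a2 moved from 95.7 to 7.56 CPM per kb and fell below Ms4a4d, while Ms4a10 passed Ms4a3 and Ms4a6d. Without scaling by length, Ms4a2 stayed above Ms4a4d.

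All 6 MS4A genes lie on chromosome 19 in a cluster of 22 protein-coding genes that spans 679 kb of GRCm38, from 10962293 to 11640851. Of these genes 21 carry Ms4a symbols in the count table. Reads were enough for testing in 5 of the 22, and these were Ms4a10 at one end, Ms4a4d, and the adjacent Ms4a6d, Ms4a2 and Ms4a3 at the other end. Ms4a6d and Ms4a3 lie 10.7 kb and 5.78 kb from Ms4a2, and the 3 genes are on the same strand. Ms4a4d lies 28.1 kb beyond Ms4a6d, on the opposite strand. The tested genes with lower levels after TGFβ1 were thus next to each other, with Ms4a4d, which was higher, on the side towards the remaining cluster. The 17 genes between Ms4a10 and Ms4a4d, Ms4a4b among them, had few reads or none. Ms4a1, the B-cell antigen gene, had 0 reads in untreated libraries and 0 to 2 in TGFβ1 libraries, and Ms4a14 had the most reads of the other genes, 0 to 5 per library.

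**Figure D3:**
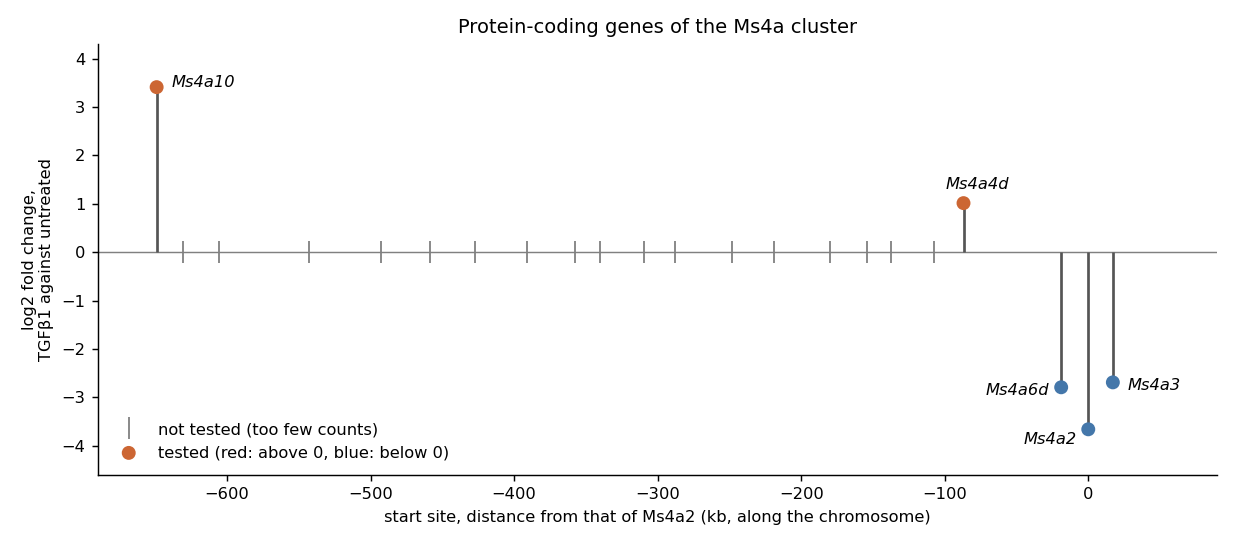
Log2 fold change (TGFβ1 against untreated) of the tested protein-coding genes of the Ms4a cluster against the distance of their start site from that of Ms4a2 in kb, with ticks at 0 for genes with too few reads. Ms4a6d, Ms4a2 and Ms4a3 stand together below 0 at the right, and Ms4a4d and Ms4a10 above 0 to their left.

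The nearest tested genes outside the cluster are given for comparison. Mrpl16, a mitochondrial ribosomal protein gene and the nearest tested gene beyond Ms4a3, at a distance of 130 kb, had 48.0 ± 1.55 CPM in untreated and 47.3 ± 1.17 CPM in TGFβ1 libraries (SD, n = 4) (log2 fold change -0.02, edgeR FDR 0.726). Ccdc86, the nearest tested gene beyond Ms4a10 at 13.0 kb, rose from 39.2 ± 2.69 to 64.1 ± 2.62 CPM (log2 fold change 0.71, edgeR FDR 1.69e-32).

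The 8 genes share little sequence with other genes. No exon of another annotated gene overlaps their exons on either strand. Of the stretches of 75 bases in Ms4a2 transcripts, 1.22% also occur in Ms4a4b, and 0.408% of those in Ms4a6d occur in Ms4a6b. Ms4a4b shares 0.746% of its stretches with Ms4a4c and 0.430% with Ms4a2. Ms4a3, Ms4a4d, Ms4a10, Fcer1a and Fcer1g share no such stretch with another gene.

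The RefSeq table of start sites on GRCm38.p6 held 7 of the 8 genes and had no entry for Ms4a6d. The 250 bases before the start site are shown for Ms4a2 and Fcer1a, the IgE receptor chains that stand furthest apart in level, and for Ms4a4d and Ms4a10, which were higher after TGFβ1. Capitals mark matches on either strand to any of 5 short motifs. The first was the element bound by GATA factors, searched as the letters AGATAA. For the SMAD factors that act downstream of TGFβ receptors, the searched word was CAGAC. The core used by ETS factors such as PU.1 was searched in the form GAGGAA. The binding element of AP-1 dimers was searched as TGACTCA, and the E-box of the SNAI and ZEB repressors was searched in the form CAGGTG. The windows lie on the strand of the gene at chr19:11623720-11623969 for Ms4a2, chr1:173227230-173227479 for Fcer1a, chr19:11536544-11536793 for Ms4a4d and chr19:10974701-10974950 for Ms4a10.
Ms4a2: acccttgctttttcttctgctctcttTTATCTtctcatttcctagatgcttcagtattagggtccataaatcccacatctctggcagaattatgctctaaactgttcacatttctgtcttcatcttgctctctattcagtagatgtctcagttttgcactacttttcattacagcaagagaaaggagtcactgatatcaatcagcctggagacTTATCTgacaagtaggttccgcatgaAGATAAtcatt
Fcer1a: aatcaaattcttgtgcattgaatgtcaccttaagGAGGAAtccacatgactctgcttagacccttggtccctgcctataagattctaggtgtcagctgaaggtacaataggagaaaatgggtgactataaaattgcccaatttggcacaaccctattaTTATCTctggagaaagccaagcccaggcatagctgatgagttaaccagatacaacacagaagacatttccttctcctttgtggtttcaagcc
Ms4a4d: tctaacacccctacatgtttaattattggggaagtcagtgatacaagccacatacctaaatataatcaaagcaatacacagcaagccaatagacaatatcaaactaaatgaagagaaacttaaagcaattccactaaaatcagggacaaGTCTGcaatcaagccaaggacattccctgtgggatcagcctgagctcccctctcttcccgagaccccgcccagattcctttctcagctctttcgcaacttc
Ms4a10: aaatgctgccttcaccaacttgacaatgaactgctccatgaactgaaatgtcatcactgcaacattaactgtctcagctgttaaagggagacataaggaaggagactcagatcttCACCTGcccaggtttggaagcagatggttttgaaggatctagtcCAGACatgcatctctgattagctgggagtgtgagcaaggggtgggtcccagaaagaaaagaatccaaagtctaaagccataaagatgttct

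The Ms4a2 window held 3 GATA elements, which began 224, 37 and 11 bases before the start site, and no match to the other letters. At least 1 such element was present in 9.99% of all 32851 promoter windows of this length, and at least 3 in 0.0883%. The limit of 3 was taken from the Ms4a2 window, after 5 motifs had been searched, so that share is a description and no test. Fcer1a, which had no reads, held 1 GATA element 92 bases before its start site and 1 ETS core, which 23.3% of all windows held. The AP-1 element, in 4.46% of all windows, was in none of the 4. The windows of Ms4a4d and Ms4a10 held 1 SMAD element each, as did 42.2% of all windows, and that of Ms4a10 held 1 E-box, as did 17.2%. Matches overlapped in none of the 4 windows. They describe letters in these windows and not binding. Gata2, a haematopoietic and endothelial transcription factor that binds such GATA elements, had 53.7 ± 4.63 CPM in untreated and 42.5 ± 3.57 CPM in TGFβ1 libraries (log2 fold change -0.34 ± 0.0734 SE, edgeR FDR 8.27e-06). A link between Gata2 and the level of Ms4a2 was not tested.

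The other genes of IgE receptor signalling, unlike the receptor's ligand-binding chain, were largely present. Of 36 signalling genes from the kinases at the receptor to its calcium and NFAT branch, 26 were tested, 16 were higher and 5 lower after TGFβ1, and 5 did not pass the test (FDR threshold 0.05). That is 80.8% called, beside 75.6% of all genes tested, of which 37.6% were higher and 38.0% lower. Their median log2 fold change was 0.60, against -0.01 over all genes tested. Lyn and Syk, the kinases that act first at the receptor, rose by log2 fold changes of 0.66 and 1.11 (edgeR FDR 5.05e-07 and 0.000118), although Syk had 7 to 42 reads per library and its groups overlapped. Fyn, a more abundant SRC-family kinase gene, fell from 77.5 ± 1.85 to 59.3 ± 2.25 CPM (SD, n = 4; log2 fold change -0.39, edgeR FDR 1.06e-15). Inpp5d, the SHIP phosphatase that restrains the receptor, had 0 to 3 reads in untreated libraries and 32 to 38 in TGFβ1 libraries (edgeR FDR 1.40e-32). Its untreated mean was under the floor, and its fitted log2 fold change was 4.73, 3.54 with a prior count of 2 and 5.43 without untreated library 2. Nfatc2, which encodes an NFAT transcription factor, had 0 to 5 reads in untreated libraries and 10 to 20 in TGFβ1 libraries (edgeR FDR 8.40e-13). The fitted value for Nfatc2, also with an untreated mean under the floor, was 3.18, 2.32 with a prior count of 2 and 4.34 without untreated library 2. Inpp5d and Nfatc2 passed the filter on low counts through their TGFβ1 libraries alone and could only come out higher.

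Several abundant signalling genes moved in opposite directions. Cbl, a ubiquitin ligase that ends receptor signalling, rose from 93.5 ± 2.23 to 146 ± 10.5 CPM (log2 fold change 0.64). Plcg1, phospholipase Cγ1, fell from 192 ± 7.09 to 158 ± 6.92 CPM (log2 fold change -0.29). Grb2, an adaptor to RAS, had 114 ± 3.73 and 117 ± 4.64 CPM and did not pass the test (log2 fold change 0.04, edgeR FDR 0.451). The phosphoinositide 3-kinase subunit genes Pik3r1 and Pik3cd fell, with log2 fold changes of -0.58 and -0.55. The adaptor genes Lcp2 and Grap2 and the exchange factor gene Vav1, which leukocytes use in this pathway, had no read.

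Fc receptors other than the IgE receptor were sparse. Of 16 such genes 9 had at most 3 reads in every library, 7 of them none, and 2 were tested. Fcgrt, the neonatal Fc receptor that carries IgG through endothelium, had 59.2 ± 1.95 CPM in untreated and 55.0 ± 0.289 CPM in TGFβ1 libraries (log2 fold change -0.11, edgeR FDR 0.0318), a call that was lost in 9 of the 16 alternative fits. Trim21, a cytosolic antibody receptor, rose from 12.4 ± 0.591 to 17.8 ± 1.73 CPM (log2 fold change 0.52, edgeR FDR 1.31e-08). Of 12 adaptors and receptors that work with the γ chain or resemble it, none had enough reads for testing and 9, Tyrobp among them, had no read. Oscar, a collagen receptor that signals through the γ chain, had the most, with 0 to 2 reads in untreated libraries and 6 to 14 in TGFβ1 libraries.

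Tmem176a and Tmem176b, relatives of the MS4A genes outside the cluster, were abundant and moved little. Tmem176a rose from 71.6 ± 2.7 to 84.6 ± 6.03 CPM (SD, n = 4) (log2 fold change 0.24, edgeR FDR 5.80e-05). Tmem176b had 199 ± 4.35 and 188 ± 9.16 CPM and did not pass the test (log2 fold change -0.08, edgeR FDR 0.0746). It passed when libraries were scaled by total counts, without the filter on low counts, and without TGFβ1 library 2 (edgeR FDR 0.000995, 0.0263 and 0.0231). The other 15 genes of the family in the table had too few reads for testing.

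Marker genes of other cells that could carry these transcripts were measured beside them. Of 24 mast cell and basophil markers, 17 had at most 3 reads in every library, 6 of them none, and 5 were tested. Il1rl1, the IL33 receptor, which is not restricted to mast cells, rose from 178 ± 10.5 to 317 ± 3.84 CPM (log2 fold change 0.83), while Alox5, which makes leukotrienes, had 1 to 2 reads in untreated and 15 to 35 in TGFβ1 libraries (edgeR FDR 1.63e-71 and 1.38e-22). The untreated mean of Alox5 was under the floor, and its fitted log2 fold change was 4.19, or 3.15 with a prior count of 2. Alox5 passed the filter on low counts through its TGFβ1 libraries alone and could only come out higher. Gata2 and Mitf fell, with log2 fold changes of -0.34 and -0.46, and Srgn did not pass the test (log2 fold change 0.53, edgeR FDR 0.133). The summed level of the list was 225 to 251 CPM in untreated and 363 to 373 CPM in TGFβ1 libraries. This rise in the sum came from Il1rl1. Of the 5 tested markers 2 were called higher and 2 lower, beside 37.6% and 38.0% of all genes tested. Without Il1rl1, the sum was 60.4 to 70.3 CPM in untreated and 47.7 to 56.4 CPM in TGFβ1 libraries. Most of this smaller sum was Gata2 (53.7 and 42.5 CPM on average), which is also an endothelial gene, and Mitf added 9.53 and 6.96 CPM. Cma1 and Alox5 had more reads after TGFβ1. The part of these markers in the levels of Ms4a2, Ms4a3 and Ms4a6d was not tested.

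Of 22 leukocyte markers, 14 had at most 3 reads in every library, 4 of these with none, and 4 were tested. All 4 were called higher after TGFβ1, beside 37.6% of all genes tested. Csf1r, with 3 to 10 reads in untreated libraries, and Coro1a, with 6 to 9, passed the filter on low counts through their TGFβ1 libraries alone. These 2 could only come out higher, and nothing is read from the count. With at least 1 CPM required in 4 libraries, 2 were tested and 2 were higher. Csf1r, the macrophage growth factor receptor, rose from 0.278 ± 0.124 to 1.38 ± 0.348 CPM (log2 fold change 2.28), and Coro1a, an actin-binding protein, from 0.338 ± 0.0744 to 1.02 ± 0.266 CPM (log2 fold change 1.62). The lysosomal glycoprotein gene Cd68 and the endotoxin co-receptor gene Cd14 rose by log2 fold changes of 1.19 and 0.54, and the 4 FDRs from edgeR lay between 6.64e-34 and 1.45e-07. The summed level of the list rose from between 16.5 and 19.3 CPM to between 33.5 and 35.3 CPM, in the direction of Ms4a4d and Ms4a10, and its part in their levels was not tested. Of 12 lymphatic endothelial markers 5 were tested, of which Kdr, Flt4 and Nrp2 rose (log2 fold changes 0.93, 0.44 and 0.41), Pdpn fell by 0.13 on the log2 scale, and Tek did not pass the test (log2 fold change -0.16, edgeR FDR 0.608).

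**Figure D4:**
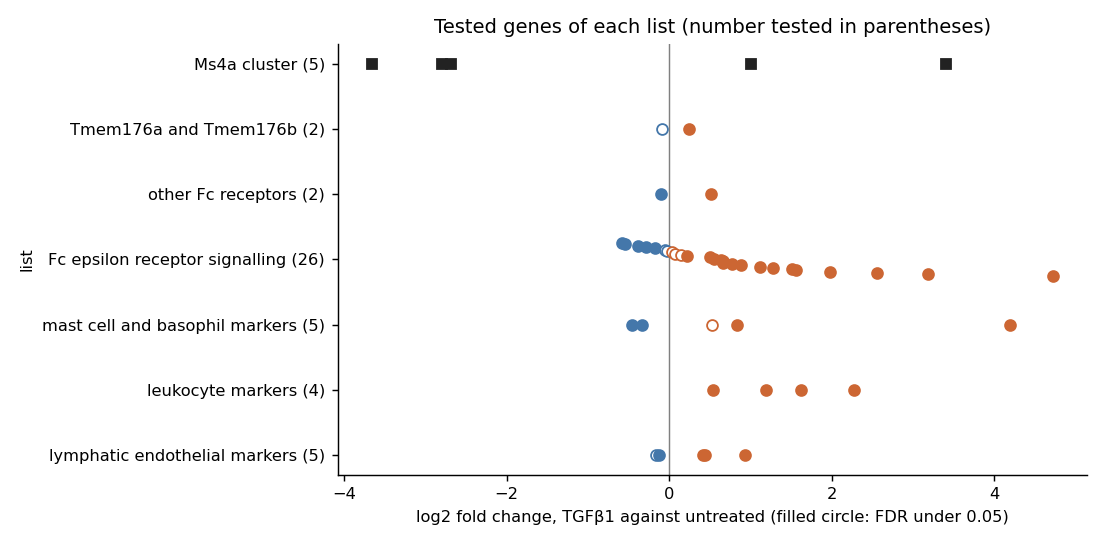
Log2 fold changes (horizontal axis, TGFβ1 against untreated) of the tested genes in each list, with filled circles for an FDR under 0.05 and open circles for the rest, and squares for the 5 tested genes of the Ms4a cluster, for which no test is shown. The Ms4a cluster spans -3.66 to 3.41, the signalling genes lie mostly above 0, and all 4 leukocyte markers lie above 0. Csf1r and Coro1a among these markers, Inpp5d and Nfatc2 among the signalling genes, and Alox5 were tested through their TGFβ1 libraries alone and could only lie above 0.

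The genes whose log2 CPM followed Ms4a2 most closely over the 8 libraries were Lmnb1 (lamin B1), Anp32e (a histone chaperone) and Podxl (podocalyxin), each with a Pearson r of 0.9996. They fell by log2 fold changes of -1.63, -1.46 and -3.10. An r over 0.95 with Ms4a2 was reached by 2685 genes, since the 8 libraries form 2 groups and r largely reflects the difference between them. For Ms4a3 the closest were Knl1, Kank1 and Rad51ap1, for Ms4a4d Gas6, Tfcp2 and Galt, and for Ms4a10 Hsd17b7, Liph and Axl, with r from 0.9955 to 0.9996. For Ms4a6d the highest r was 0.9928, with Acsl4, and 658 genes were over 0.95.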

How the data were processed

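RNA from SV-LECs was sequenced by the authors as 4 untreated and 4 TGFβ1 libraries. The deposited values are raw counts per gene, which the authors made without normalization. The submitters' processing notes name bcl2fastq 2.20.0.422, STAR 2.7.3a, featureCounts 1.5.1 and GRCm38 (mm10). The annotation release and the strand setting of counting are not given in the sources used here. The tables held 18952504 to 26386941 reads per library, and reads of replicates in a group differed by more than counting noise in all 12 pairs.

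Counts were filtered with filterByExpr, scaled by TMM and tested in R 4.3.3 with edgeR 4.0.16 (glmFit and glmLRT, FDR 0.05 by Benjamini-Hochberg over 13818 genes). Fold changes use a prior count of 0.125. Their standard errors were derived from the test, as the absolute log2 fold change divided by the square root of the likelihood ratio statistic. Alternatives were edgeR's quasi-likelihood test, DESeq2 1.42.0, other scalings, filters and prior counts, a replicate block, and leaving out each library. The procedure was also run on simulated data with far fewer changed genes than were called here. That run cannot show how the procedure behaves with changes this broad. Positions and exon lengths came from GENCODE M21 on GRCm38, which held 55144 of the 55471 rows, and promoters from RefSeq on GRCm38.p6.

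The members and the gene lists were chosen with earlier results of these data known. Named genes were the 8 genes and, per list, the 3 tested genes with the highest mean CPM and the 2 with the largest called change in each direction whose libraries did not overlap (with no tested gene, the one with the highest total count), the nearest tested genes on each side (not all of which are reported here), and the 3 tested genes with the most similar log2 CPM for genes of at least 1 CPM on average. Lyn, Syk, Fyn, Srgn, Tek and the genes named for having few or no reads fall outside this rule and were chosen after their values were seen. The sum of mast cell markers without Il1rl1 and the limit of 3 GATA elements per window were also set after values were seen.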

Additional observations from a re-analysis of the deposited data

Results flagged for a closer look

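In each group of 4 libraries, the library furthest from the others was compared with the critical value of Dixon's test, 0.829. Of 13 groups of the 8 genes examined, 2 passed it, where chance gives about 1 in 20. Ms4a2 in TGFβ1 library 2 was at 17.0 CPM, while the other TGFβ1 libraries lay between 22.2 and 23.0 CPM (ratio of gap to range 0.860). All 4 remained far below the untreated libraries, and without TGFβ1 library 2 the log2 fold change of Ms4a2 was -3.57. Fcer1g in untreated library 3 was at 0.0873 CPM, while the other untreated libraries lay between 0.145 and 0.152 CPM (ratio 0.883). These are 2 reads against 3 to 4, a difference within counting error.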

How the results depend on the processing

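The log2 fold changes of Ms4a2, Ms4a3, Ms4a4d, Ms4a6d and Ms4a10 kept their direction in all 16 alternatives, from -3.73 to -3.57 for Ms4a2, -2.76 to -2.60 for Ms4a3, 0.95 to 1.06 for Ms4a4d, -3.21 to -2.52 for Ms4a6d and 3.15 to 3.61 for Ms4a10. The counts of all genes called ranged from 4627 to 6385 higher and from 4941 to 5899 lower. Scaling by total counts moved the median log2 fold change of all genes by -0.067. Without the filter on low counts, calls were 2 higher and 1 lower for other MS4A genes, 2 and 2 for other Fc receptors, 1 higher for partners of the γ chain, 4 higher for mast cell markers, 7 higher for leukocyte markers and 2 lower for lymphatic markers. In that order, 9, 9, 3, 18, 18 and 10 genes of these lists were then tested. Of all 27709 genes tested in that setting, 6385 were higher and 5755 lower. With at least 1 CPM required in 4 libraries, calls were 1 higher for mast cell markers and 2 higher for leukocyte markers, of which fewer were tested, and 0 lower for other Fc receptors, where Fcgrt was still tested (FDR = 0.0606 from edgeR). Calls of other MS4A genes lower were 1 by total counts and 0 to 1 when a library was left out (1 without TGFβ1 library 2). Other Fc receptors gave 0 lower with DESeq2 (adjusted p = 0.0578 for Fcgrt) and with the replicate block (FDR = 0.0782 from edgeR). With a library left out they gave 1 to 2 higher (2 without untreated library 4 or TGFβ1 library 2) and 0 to 1 lower, Fcgrt losing its call without untreated library 2 or 3 or any 1 of the TGFβ1 libraries (FDR = 0.0502 to 0.12 from edgeR). Grb2 reversed to -0.0296 by total counts and Tek, which ranged from -0.304 to 0.0131 with a library left out, reversed without untreated library 4, neither called, and Srgn was called without untreated library 4 (FDR = 0.0451 from edgeR). The cause of these changes was not tested. Replicate numbers did not pair the samples (correlations of deviations -0.152 to -0.0344, with 0 of 4 libraries correlating best with their own number), and beside Fcgrt the block changed no call named in the text. Fcer1a, Fcer1g, Ms4a4b and the other MS4A genes of the cluster that were not tested had few reads or none, so no difference between groups could be measured in them.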
